A study of Mus musculus with 12 samples.

Results

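Transcripts of 7 subunits of the GABA-A receptor, Gabra2, Gabra3, Gabra4, Gabra5, Gabra6, Gabrb2 and Gabrd, were followed through whole cortex and whole cerebellum of SCA1 KI mice and their WT littermates. The genes were taken by symbol, and all 7 were found among the 15759 entries of the deposited table and passed the filter on low values, which kept the 15369 genes whose mean over the libraries reached 10 normalized counts. The SCA1 KI mice, on a C57BL/6J background, carry 154 glutamine codons in one allele of Atxn1 and 2 in the other, so the expanded protein comes from the gene's own locus in every cell that uses it. Poly-adenylated RNA was sequenced at 12 weeks of age from 4 groups of 3 libraries each, namely WT cortex (libraries B, C and D), SCA1 KI cortex (A, E and F), WT cerebellum (2, 4 and 6) and SCA1 KI cerebellum (1, 3 and 5). Per the labels the mice were male, and per the methods both sexes were combined. The cerebellar libraries belong to an earlier dataset of the laboratory, so region and dataset cannot be told apart.

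GABA-A receptors are chloride channels built from 5 subunits, and they carry most of the fast inhibition in the forebrain and the cerebellum. A typical receptor holds a pair of alpha subunits, a pair of beta subunits and a gamma or delta subunit. The alpha subunit sets much of the response to GABA and to benzodiazepines, whereas receptors with a delta subunit lie outside the synapse and pass a steady, tonic current. In the cerebellum the alpha 6 subunit is characteristic of granule cells, and in the forebrain the alpha 4 and alpha 5 subunits are known partners of tonic inhibition.

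Most of these genes lie in clusters with other subunits of the receptor (GRCm38, GENCODE vM21). Gabra2 (chromosome 5, 70957597 to 71095849, minus strand) and Gabra4 (chromosome 5, 71569749 to 71658308, minus strand) share a cluster with Gabrg1 and Gabrb1. Gabra6 (chromosome 11, 42306437 to 42321072, minus strand) and Gabrb2 (chromosome 11, 42419757 to 42629028, plus strand) face away from each other in one cluster, with 98685 bases between them. Gabra5 (chromosome 7, 57407672 to 57510059, minus strand) lies with Gabrg3, Gabra3 (chromosome X, 72432681 to 72656848, minus strand) lies with Gabre and Gabrq, and Gabrd (chromosome 4, 155384980 to 155398112, minus strand) stands apart from the clusters. The first 196 bases of Gabra4 overlap the start of Gabrb1 on the other strand, and Gabra5 shares exon sequence with Gm9962 on the other strand. Whether the reads were counted by strand is not given in the sources used here, so some reads of Gabra4 and Gabra5 could belong to these neighbours.

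The promoters of 3 members are shown because the genes behaved in different ways, Gabra6 being nearly silent in the cortex and high in the cerebellum, and Gabra4 and Gabrb2 being lower in the SCA1 KI cortex. Each line gives the 250 bases before the gene's start (RefSeq, GRCm38.p6), read 5′ to 3′ on the strand of the gene, with every CpG in capitals. The windows are chr11:42321073-42321322 for Gabra6, chr5:71658309-71658558 for Gabra4, and chr11:42420190-42420439 for the first of the 3 starts of Gabrb2.
Gabra6: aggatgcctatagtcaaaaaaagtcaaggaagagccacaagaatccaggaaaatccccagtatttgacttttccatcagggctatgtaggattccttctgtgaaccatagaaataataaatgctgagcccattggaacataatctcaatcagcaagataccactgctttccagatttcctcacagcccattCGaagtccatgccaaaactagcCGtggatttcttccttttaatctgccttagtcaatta
Gabra4: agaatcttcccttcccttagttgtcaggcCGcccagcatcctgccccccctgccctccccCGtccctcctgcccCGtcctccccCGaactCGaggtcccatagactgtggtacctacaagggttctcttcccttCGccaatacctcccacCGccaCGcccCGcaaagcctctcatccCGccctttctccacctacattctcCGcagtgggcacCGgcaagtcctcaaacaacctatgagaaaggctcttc
Gabrb2: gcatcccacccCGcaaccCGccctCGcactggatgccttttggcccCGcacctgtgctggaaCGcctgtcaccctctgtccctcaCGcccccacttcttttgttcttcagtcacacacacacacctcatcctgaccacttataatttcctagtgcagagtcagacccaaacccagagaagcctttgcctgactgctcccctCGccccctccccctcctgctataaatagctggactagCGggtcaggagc
The Gabra6 window holds 2 CpGs, the Gabra4 window 12 and this Gabrb2 window 8, against a median of 6 over 32851 promoter windows of the same length. The other Gabrb2 windows hold 8 and 4, the Gabra2 window 18 and the Gabra5 window 9. Each Gabra3 window holds 0, although Gabra3 was high in the WT cortex (2289 normalized counts per kb of exon). Whether the number of CpGs goes with the level was not tested. Ataxin-1, the protein of Atxn1, binds the repressor Capicua, whose octamers TGAATGAA, TGAATGGA, TCAATGAA and TCAATGGA were searched on both strands. None of the octamers occurred in the 9 windows found for 6 of the 7 members, and 3.19% of all windows held one, which says only that these letters are not in these windows.

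The labelled regions could be read from the genes that define them. Emx1, a transcription factor of cortical excitatory neurons, ranged from 524 to 1143 normalized counts in the cortical libraries and from 0 to 5.81 in the cerebellar libraries. Fat2, a granule cell gene, ranged from 24336 to 32384 normalized counts in the cerebellum and from 6.90 to 37.6 in the cortex. Depth lay between 29520855 and 51311309 reads on genes in a library. Atxn1 itself did not pass the threshold in either region, with an LFC (log2 fold change of SCA1 KI against WT) of −0.31 (SE 0.13, limma adjusted p = 0.132) in the cortex and of 0.08 (SE 0.13, limma adjusted p = 0.837) in the cerebellum. In whole tissue, fewer cells of a type and less RNA per cell cannot be told apart.

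WT cortex and WT cerebellum differed in the make-up of these subunits. All 7 members passed the test between the WT regions, where 61.7% of all tested genes did, 31.0% higher and 30.7% lower in the cortex (limma, adjusted p under 0.05 and absolute log2 difference over 0.25). This count holds Gabra6, which passed the filter on low values only through its cerebellar reads, so its call cannot be weighed against that share. Gabra2, Gabra3, Gabra4 and Gabra5 were higher in the cortex, by log2 differences of 0.62 (SE 0.18), 2.56 (SE 0.21), 1.91 (SE 0.079) and 3.22 (SE 0.41). Gabrd and Gabrb2 were lower in the cortex, by log2 differences of −0.68 (SE 0.13) and −0.27 (SE 0.074), and that of Gabrb2 lay inside the limit without WT cerebellar library 4 (−0.22), without WT cortical library B or D (−0.24 each) and after removal of a trend on length and GC content (−0.21).

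Gabra6 was close to an on-off case and passed the filter on low values through the cerebellum alone. It gave 22685, 26263 and 22921 reads in WT cerebellar libraries 2, 4 and 6, and 1, 0 and 37 reads in WT cortical libraries B, C and D. In the SCA1 KI cortex it gave 0, 3 and 2 reads in libraries A, E and F, so only WT cortical library D stood above the other 5. That library also held the most Cbln3 of the cortical libraries, a granule cell gene, at 108 normalized counts against 11.7 to 19.7 in SCA1 KI and 15.5 to 19.0 in the other WT libraries, and the part of cerebellar tissue in its reads was not tested. The mean of Gabra6 in the SCA1 KI cerebellum was at least 10434-fold higher than the level that 3 reads in a library would give in the SCA1 KI cortex.

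Levels of different genes were compared as normalized counts per kb of exon. In the WT cortex Gabrb2 led the members at 3499 ± 266 per kb (SD, n = 3), followed by Gabra3 at 2289 ± 118 per kb and Gabra4 at 1172 ± 121 per kb. The libraries of Gabra4 overlapped those of Gabrd, at 1052 ± 33.5 per kb, and Gabra5 at 964 ± 36.4, Gabra2 at 222 ± 41.2 and Gabra6 at 5.80 ± 9.64 per kb followed without overlap. In the SCA1 KI cortex Gabrd stood behind Gabra5 in this order, at 354 ± 44.7 against 840.0 ± 80.7 per kb, whereas Gabra4 and Gabra5 overlapped.

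The order was different in the cerebellum. In the WT cerebellum Gabra6 led at 10645 ± 2285 per kb, followed by Gabrb2 at 4224 ± 332 and Gabrd at 1714 ± 367 per kb. Gabra3 at 416 ± 195 and Gabra4 at 310 ± 11.5 per kb overlapped, as did Gabra2 at 143 ± 5.92 and Gabra5 at 132 ± 116 per kb. In the SCA1 KI cerebellum all neighbours in the order were separate, with Gabra6 at 12728 ± 292 per kb at the top and Gabra5 at 27.5 ± 4.70 per kb at the bottom.

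**Figure D1:**
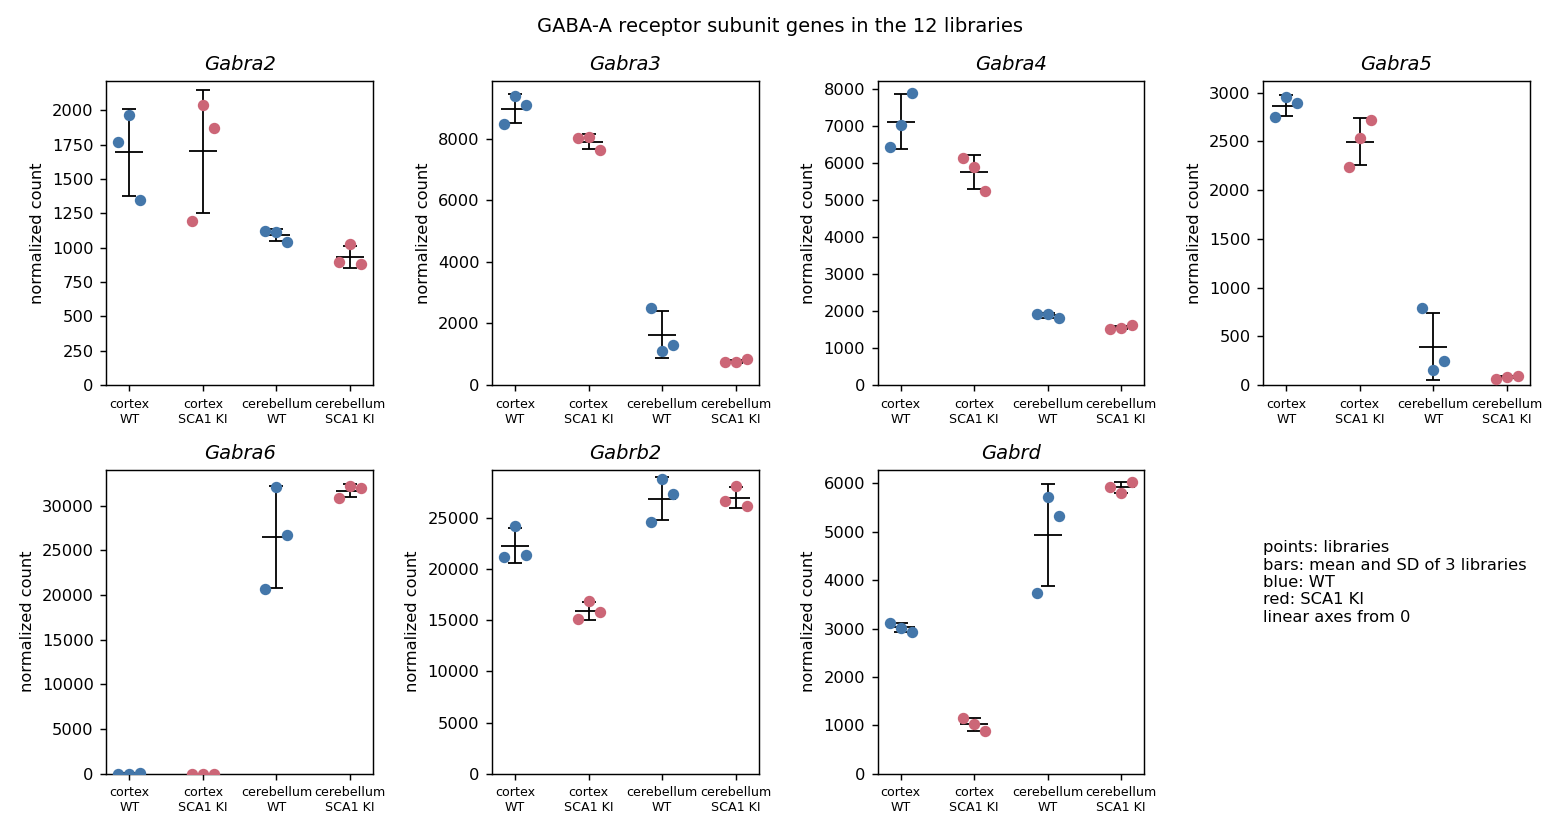
Normalized counts (linear vertical axes from 0) of the 7 members in each library, with 1 panel per gene, 1 point per library, and bars for the mean and SD of 3 libraries of WT (blue) and SCA1 KI (red). The SCA1 KI cortical libraries of Gabrd sit between 888 and 1144, all below the WT cortical libraries, and WT cerebellar library 2 lies highest of the cerebellar libraries for Gabra3 and Gabra5 and lowest for Gabra6, Gabrb2 and Gabrd.

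In the cortex, Gabrd, Gabrb2 and Gabra4 were lower in SCA1 KI mice. These were 3 of the 7 members, against 10.8% of all tested genes that were lower DEGs (adjusted p under 0.05 with an LFC beyond 0.25 in size) and 15.6% that were DEGs in either direction. None of the members was a higher DEG by limma, edgeR or DESeq2, against 4.82% of all tested genes that were higher DEGs by limma. At an unadjusted p under 0.05 (limma) 0 members were higher, and the share of all tested genes at that looser limit was not taken. For 5 members each SCA1 KI library lay under each WT library, which was so for 18.0% of all tested genes. The median LFC of the 7 members was −0.30, against −0.003 over all tested genes. The 7 include Gabra6, whose cortical LFC (−1.02) rested on 0 to 37 reads in a library and could not be read as a difference.

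Gabrd, the delta subunit of extrasynaptic receptors, showed the widest difference of the members. Its normalized count was 3122, 3020.4 and 2929 in WT cortical libraries B, C and D, and 1144, 1024 and 888 in SCA1 KI libraries A, E and F. Every SCA1 KI library lay well below every WT library. The mean was 2.97-fold lower in SCA1 KI mice (LFC −1.58, SE 0.13, limma adjusted p = 1.4e-05), and the LFC stayed between −1.66 and −1.48 with any one library left out.

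Gabrb2, a beta subunit of synaptic receptors, gave 21181, 24200.1 and 21378 normalized counts in the WT libraries and 15054, 16840.4 and 15762 in the SCA1 KI libraries. The groups were separate, and the mean fell by 28.6% (LFC −0.49, SE 0.074, limma adjusted p = 7.3e-04).

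Gabra4, an alpha subunit that joins the delta subunit in the forebrain, gave 6441, 7033 and 7906 normalized counts in the WT libraries and 6139, 5890.1 and 5263 in the SCA1 KI libraries. The groups did not overlap, but WT library B and SCA1 KI library A lay close to each other. The mean fell by 19.1% (LFC −0.30, SE 0.079, limma adjusted p = 0.0179). The call was lost without WT library D (LFC −0.23, adjusted p = 0.0626), without SCA1 KI library F (LFC −0.24, adjusted p = 0.0695) and with each region fitted on its own (adjusted p = 0.0804).

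Gabra3 and Gabra5, which form receptors with distinct benzodiazepine responses, did not pass the test in the cortex although their libraries did not overlap. Gabra3 gave 8473, 9382 and 9086 normalized counts in WT and 8016, 8070.0 and 7624 in SCA1 KI libraries (LFC −0.18, 95% interval −0.65 to 0.28, limma adjusted p = 0.612). Gabra5, the subunit enriched in hippocampus and deep cortical layers, gave 2746, 2957 and 2893 in WT and 2241, 2537 and 2717 in SCA1 KI libraries (LFC −0.20, 95% interval −1.10 to 0.69, limma adjusted p = 0.785). The fit shares 1 estimate of the spread over all 4 groups, and both genes varied most among the WT cerebellar libraries. Fitted on the cortex alone their adjusted p values were 0.149 and 0.196.

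Gabra2, an alpha subunit of forebrain synapses, had means of 1693 normalized counts in WT and 1701 in SCA1 KI cortex. It gave 1766, 1965 and 1349 normalized counts in the WT and 1193, 2040.3 and 1869 in the SCA1 KI libraries, so the groups overlapped (LFC −0.01, 95% interval −0.39 to 0.37, limma adjusted p = 0.968). WT library D and SCA1 KI library A were the low ones of their groups.

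**Figure D2:**
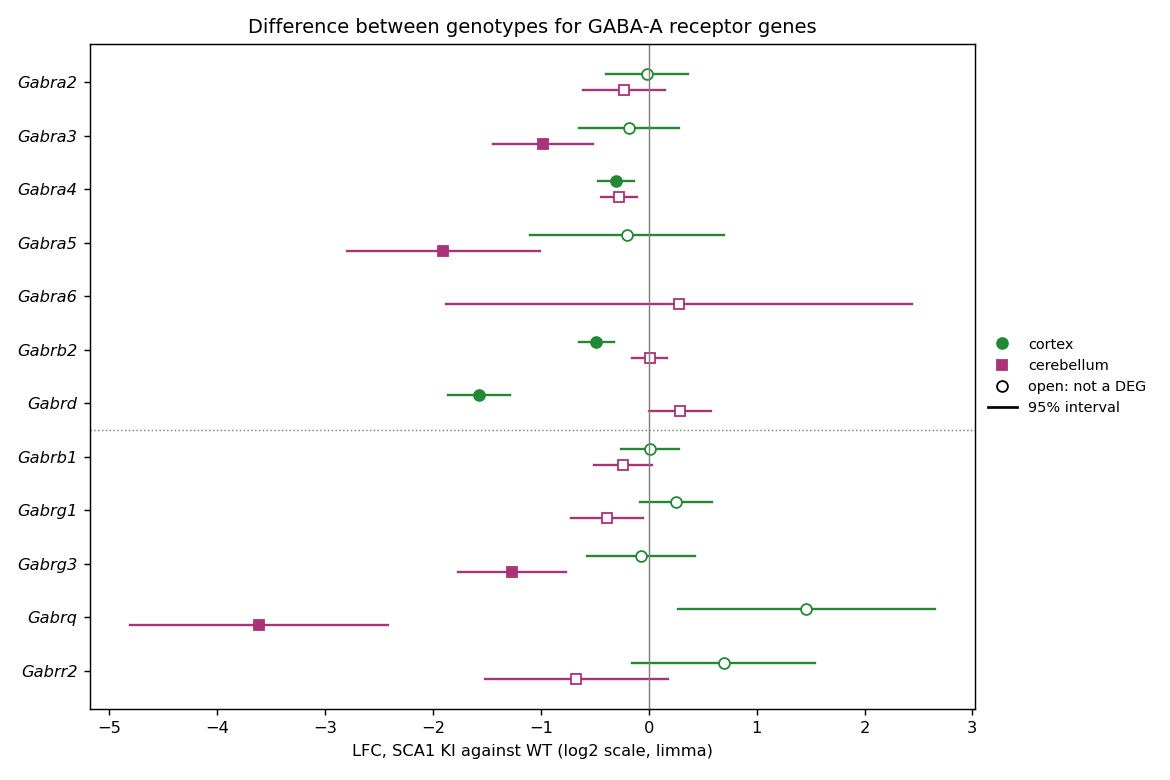
LFC of SCA1 KI against WT (horizontal axis, log2 scale, with 95% intervals from limma) for the members above the dotted line and 5 other GABA-A receptor genes below it, in the cortex (green circles) and the cerebellum (purple squares), with filled symbols for DEGs. Gabra6 in the cortex is left out because of its few reads, Gabrd in the cortex sits at −1.58, and the members below −0.9 in the cerebellum are Gabra3 and Gabra5.

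Of 9 other genes of the receptor family that were read beside the members, 5 could be tested, and none was a DEG in the cortex by limma or edgeR. Gabrq, the theta subunit, was a higher DEG by DESeq2 and was the 1 gene of them at an unadjusted p under 0.05 (LFC 1.46, 95% interval 0.27 to 2.65, limma adjusted p = 0.0895). The LFC of Gabrb1, Gabrg1, Gabrg3 and Gabrr2 lay between −0.07 (Gabrg3) and 0.69 (Gabrr2). Gabre stayed below the minimum, and Gabrp, Gabrr1 and Gabrr3 were not among the entries of the deposited table.

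Genes of the inhibitory synapse around the receptor were also read in the cortex, where 6 of 26 tested genes were lower and 2 higher DEGs by limma, against 10.8% and 4.82% of all tested genes. By edgeR 4 of them were lower and 2 higher DEGs. The lower group held Gabbr1 and Gabbr2, which encode the metabotropic GABA-B receptor, with LFC of −0.25 and −0.56, and Slc12a5, the chloride exporter KCC2, at −0.33. It also held Igsf9b, an adhesion protein of inhibitory synapses, at −1.56, Trak1, a trafficking adaptor, at −0.32, and Gad1, a GABA-synthesizing enzyme, at −0.42. Rdx, which encodes the alpha 5 anchor radixin, and Hap1, which takes part in receptor recycling, were higher with LFC of 0.26 and 0.54. Over 21 other fits the call of Gad1 (limma adjusted p = 0.0448) was lost in 13, of Hap1 (limma adjusted p = 0.0442) in 10, of Gabbr1 in 7, of Rdx in 4, and of Trak1 and Slc12a5 in 1 each. The call of Gabbr1, whose LFC lay close to the limit of 0.25, was among those lost with edgeR and with the cortex fitted on its own (adjusted p = 0.0974).

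Markers of several cell types moved with genotype in these cortical libraries. Of 8 markers of cortical excitatory neurons 3 were lower DEGs (Rorb, Cux2 and Nrgn), and their summed normalized counts were 105350 to 110760 in WT and 58598 to 79954 in SCA1 KI libraries. Of 7 inhibitory neuron markers 2 were lower (Pvalb and Npy), with sums of 15496 to 16833 in WT and 9532 to 11515 in SCA1 KI libraries, and 3 of 5 astrocyte markers were lower. Of 7 hippocampus markers 1 was lower (Wfs1), with sums of 4753 to 6285 in WT and 2220 to 3616 in SCA1 KI libraries. Lower too were 1 of 6 tested striatum markers (Ppp1r1b) and 1 of 6 tested thalamus markers (Rgs16). Of 7 tested midbrain markers 3 were higher (Pou4f1, Shox2 and Tal1), with sums of 244 to 339 in WT and 852 to 1807 in SCA1 KI libraries, and Shox2 was at 0 in all WT cortical libraries. The part of these differences in the values of the subunits was not tested.

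In the cerebellum, Gabra3 and Gabra5 were the members that were lower DEGs in SCA1 KI mice. These were 2 of the 7 members, against 4.44% of all tested genes that were lower DEGs and 5.36% that were DEGs in either direction. None was a higher DEG by limma, edgeR or DESeq2, against 0.917% of all tested genes that were higher DEGs by limma. At the looser limit of an unadjusted p under 0.05, 1 member, Gabrd, was higher (0.0485, limma). The share of all tested genes at that looser limit was not taken. Libraries did not overlap for 4 members that were lower and 1 that was higher, against 17.5% and 14.3% of all tested genes. The median LFC of the members was −0.23, against −0.005 over all tested genes.

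Gabra3 gave 2509, 1096 and 1292 normalized counts in WT cerebellar libraries 2, 4 and 6, and 747, 739 and 835 in SCA1 KI libraries 1, 3 and 5. The groups did not overlap, with SCA1 KI lower, and WT library 2 stood far above the rest. The mean was 2.11-fold lower in SCA1 KI mice (LFC −0.98, SE 0.21, limma adjusted p = 0.0176). Without WT library 2 the LFC was −0.62, and the call was lost without SCA1 KI library 1 (adjusted p = 0.0718), without SCA1 KI library 3 (adjusted p = 0.0717) and with the cerebellum fitted on its own (adjusted p = 0.0778).

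Gabra5 followed the same libraries. It gave 786, 150.2 and 242 normalized counts in WT and 66.6, 85.1 and 93.9 in SCA1 KI libraries, again without overlap and with WT library 2 on top. The mean was 4.80-fold lower in SCA1 KI mice (LFC −1.90, SE 0.41, limma adjusted p = 0.017). Without WT library 2 the LFC was −1.23, and the call was lost without SCA1 KI library 1 (adjusted p = 0.0792), without SCA1 KI library 3 (adjusted p = 0.0555) and with the cerebellum fitted on its own (adjusted p = 0.0795).

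Among the other tested receptor genes, 2 of 5 were lower DEGs in the cerebellum, against 4.44% of all tested genes. Gabrg3, a gamma subunit from the same cluster as Gabra5, gave 75.8, 50.1 and 57.1 normalized counts in WT and 20.2, 20.6 and 34.9 in SCA1 KI libraries (LFC −1.26, SE 0.23, limma adjusted p = 0.0064). Gabrq, the theta subunit from the same cluster as Gabra3, gave 235, 80.6 and 64.1 in WT and 7.58, 4.12 and 14.5 in SCA1 KI libraries (LFC −3.61, SE 0.55, limma adjusted p = 0.0020). Both genes were separate between the genotypes, and both were highest in WT library 2. The same held for Gabrb1, Gabrg1 and Gabrr2, which were not DEGs (LFC −0.24, −0.39 and −0.67). All 5 tested genes were thus separate with SCA1 KI lower, against 17.5% of all tested genes.

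Markers of midbrain, thalamus and forebrain differed between the same cerebellar groups. Of 7 tested midbrain markers 4 were lower DEGs in SCA1 KI (Pou4f1, Tal1, Shox2 and Gata3), and the summed normalized counts of the 8 listed markers were 853 to 1174 in WT and 220 to 286 in SCA1 KI libraries. Pou4f1 was at 139, 46.4 and 83.9 in WT libraries 2, 4 and 6 and at 2.53 to 10.6 in SCA1 KI libraries, and Shox2 was at 120 to 210 against 0 to 9.68, with 0 in SCA1 KI library 3. Of 6 tested thalamus markers 4 were lower, among them Tcf7l2 at 1480 to 2404 in WT and 210 to 249 in SCA1 KI libraries, and Slc17a6, a vesicular glutamate transporter, at 2878 to 6803 and 982 to 1310. The sum of the thalamus list ran the other way, at 19393 to 20766 in WT and 22731 to 23887 in SCA1 KI libraries, with Calb2 alone at 10617 to 14150 and 20744 to 22040. Of the forebrain markers, 3 of 7 for inhibitory neurons (Vip, Sst and Npy), 2 of 8 for cortical excitatory neurons (Rorb and Nrgn), 1 of 6 for striatum (Six3) and 1 of 7 for hippocampus (Fibcd1) were lower, whereas Tbr1 of the excitatory list was higher. The excitatory list summed to 4535 to 5870 in WT and 2803 to 2912 in SCA1 KI libraries, and the inhibitory list to 26482 to 29165 and 23823 to 25114. Nrgn, a synaptic protein of forebrain neurons, was at 1777 to 2687 normalized counts in WT and 96.8 to 155 in SCA1 KI libraries, and Vip was at 81.5 to 129.6 and 0 to 2.53. WT library 2 was the highest of the 6 for Gabra3, Gabra5, Gabrg3 and Gabrq as well as for Tcf7l2, Slc17a6, Pou4f1, Shox2, Gata3, Nrgn, Vip, Sst, Six3 and Fibcd1. Not every marker of these lists followed it. Npy and the thalamus marker Rgs16 were highest in WT library 6, and the midbrain markers Tph2 and Slc6a4 in WT library 4. The part of tissue from other regions in the values of Gabra3 and Gabra5 was not tested.

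**Figure D3:**
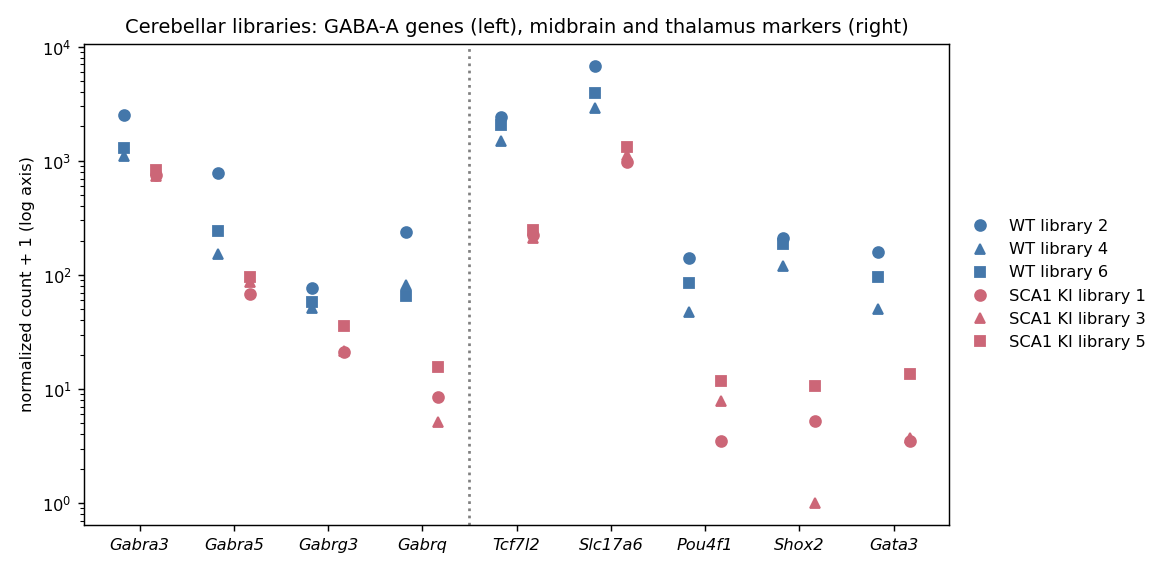
Normalized count plus 1 (log vertical axis) of Gabra3, Gabra5, Gabrg3 and Gabrq, and of 5 markers of midbrain or thalamus right of the dotted line, in the 3 WT (blue) and 3 SCA1 KI (red) cerebellar libraries, with 1 symbol per library. WT library 2 (blue circles) is the highest for each of these genes, and the red symbols lie under the blue ones in every column.

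Gabra6 and Gabrd, the subunits most tied to cerebellar granule cells, did not pass the test between genotypes. Gabra6 gave 20711, 32079.6 and 26698 normalized counts in WT and 30845, 32164 and 32033 in SCA1 KI libraries, so WT library 4 lay among the SCA1 KI libraries. Its LFC was 0.28 (SE 1.0, limma adjusted p = 0.933), and with the cerebellum fitted on its own, away from the near-zero cortical libraries, the adjusted p was 0.271. Gabrd, which joins alpha 6 in granule cells, gave 3731, 5718 and 5336 in WT and 5920.3, 5803 and 6023 in SCA1 KI libraries. These groups were separate with SCA1 KI higher, by a mean of 20.0%, but did not pass the test (LFC 0.29, SE 0.13, 95% interval 0.00 to 0.57, limma adjusted p = 0.284). Without WT library 2 the LFC of Gabrd was 0.10.

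WT library 2 was also low in the granule cell markers as a list, with a sum of 139120 normalized counts, whereas the other WT libraries were at 192914 and 195613 and SCA1 KI libraries at 185175 to 195128. None of the 8 granule cell markers was a DEG in the cerebellum by limma, edgeR or DESeq2, and 0 passed an unadjusted p of 0.05. The part of the low granule cell signal of this library in the values of Gabra6 and Gabrd was not tested.

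Gabrb2 had nearly equal means in the cerebellum. It gave 24577, 28738 and 27274 normalized counts in WT and 26617, 28075 and 26142 in SCA1 KI libraries, with overlapping groups (LFC 0.01, 95% interval −0.15 to 0.17, limma adjusted p = 0.981). Gabra4 gave 1930.0, 1920.2 and 1804 in WT and 1511, 1541 and 1612 in SCA1 KI libraries, a separate and tight pair of groups that missed the threshold (LFC −0.28, SE 0.079, limma adjusted p = 0.0621). Gabra4 passed in 7 other fits, namely with the cerebellum fitted on its own (adjusted p = 0.0195), with DESeq2 (adjusted p = 0.0257), after removal of a trend on length and GC content (adjusted p = 0.0237), and without cortical library A, B, D or F (adjusted p = 0.0346 to 0.0475). Gabra2 gave 1122, 1112 and 1039 in WT and 893, 1024 and 881 in SCA1 KI libraries, also separate but not past the threshold (LFC −0.23, 95% interval −0.61 to 0.15, limma adjusted p = 0.584).

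Of the 26 genes of the inhibitory synapse, 4 were lower DEGs in the cerebellum by limma, 5 by edgeR and 6 by DESeq2, against 4.44% of all tested genes by limma. None was a higher DEG by limma, edgeR or DESeq2, with 1 gene, Trak2, higher at an unadjusted p under 0.05. Slc6a11, a GABA transporter of astrocytes, had an LFC of −1.48, Hap1 of −0.77, Shisa7, an accessory protein of the receptor, of −0.56, and Gabbr1 of −0.34. Over 21 other fits the call of Shisa7 (limma adjusted p = 0.0447) was lost in 7, among them 5 that left out a cerebellar library (adjusted p up to 0.182). That of Hap1 (limma adjusted p = 0.0182) was lost in 4, while Slc6a11 and Gabbr1 passed in all 21. Slc6a11 had a wide spread in WT, with a mean of 8003 normalized counts (SD 3721) against 2674 (SD 156) in SCA1 KI cerebellum. The part of tissue from other regions in the values of Slc6a11 was not tested.

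The difference between the regions in the response to genotype was tested as an interaction, the cortical LFC minus the cerebellar LFC. It passed for 2 of the 7 members, where 8.15% of all tested genes passed at an adjusted p under 0.05. Gabrd had an interaction of −1.86 (SE 0.19, limma adjusted p = 2.3e-04), with a lower level in the SCA1 KI cortex and a mean above WT in the cerebellum. Gabrb2 had an interaction of −0.49 (SE 0.11, limma adjusted p = 0.0121).

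For the other members the cortical and cerebellar differences were not shown to differ in this fit. Gabra4 had nearly the same LFC in each region, −0.30 and −0.28, with an interaction of −0.03 (95% interval −0.27 to 0.21, limma adjusted p = 0.921). Gabra5 and Gabra3, whose lower levels were called in the cerebellum, had interactions of 1.70 (95% interval 0.44 to 2.97, limma adjusted p = 0.101) and 0.80 (95% interval 0.14 to 1.45, limma adjusted p = 0.143). The interaction of Gabra5 passed with edgeR and DESeq2 on the recovered reads (adjusted p = 0.0439 and 0.0473), and both genes passed without WT library 2 or without WT library 4 of the cerebellum. Among the other receptor genes the interaction passed for Gabrg3 (1.19) and Gabrq (5.07).

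The members also differed in which genes they varied with. After each region's mean was removed, Pearson's r was taken over the 12 libraries against the 12664 genes whose mean reached 100 normalized counts. It is a description in which all points share library and genotype. The genotype means were not removed, so r includes the differences between SCA1 KI and WT. Smad3, a mediator of TGF-beta signals, was among the genes most like Gabrd (r = 0.981). Gabrb2 was most like Tmem56 (r = 0.992) and Gria4, an AMPA receptor subunit (r = 0.982), and Gabra4 like Lgals1 (r = 0.958) and Lancl1 (r = 0.952).

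Tmem179 stood among the top genes for both Gabra3 (r = 0.977) and Gabra5 (r = 0.982), with Rab27b (r = 0.982) beside the former and Asah2 (r = 0.981) beside the latter. No gene is given for Gabra6, whose reads in 5 of 6 cortical libraries numbered 3 or fewer. Gabra2 was most like Slc5a3, an inositol transporter (r = 0.946), and Tgoln1 (r = 0.936). Between members, the closest pairs were Gabra3 with Gabra5 (r = 0.986) and Gabrb2 with Gabrd (r = 0.916), whereas Gabra2 with Gabra4 were near 0 (r = −0.03). Among the cerebellar libraries Gabra3 and Gabra5 both stood highest in WT library 2, and Gabrb2 and Gabrd were both lower in the SCA1 KI cortex.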

How the data were processed

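RNA of 12 libraries (4 groups of 3) was sequenced by the authors as 75 bp paired ends, aligned with STAR to mm10, counted with featureCounts and normalized with DESeq2, per the labels and methods; versions are not given in the sources used here. The deposited signal is the normalized count, reads divided by the size factor of the library, and 100% of values in each library came out as whole reads (tolerance 0.05).

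Here, log2(normalized count + 1) of 15369 genes was modelled in R 4.3.3 by limma 3.58.1, using 4 group means over all 12 libraries and moderated variances with a mean trend, with Benjamini-Hochberg adjustment over all tested genes. The pseudocount understates the LFC of low genes. A DEG needed an adjusted p under 0.05 with an LFC beyond 0.25 in size. edgeR 4.0.16 and DESeq2 1.42.0 were run on recovered reads. Other settings were pseudocounts of 0.5 and 5, no filter or a minimum mean of 100, separate regions, centring, LFC limits, removal of a length and GC trend, and 1 library left out. The fits were tested on simulated data. Exon lengths, overlaps and positions came from GENCODE vM21, which matched 14978 symbols. Named genes were the members, the other receptor genes, the inhibitory synapse genes called in either region, up to 2 genes most like each member, and cell type markers. Some genes and results that these rules name are not reported here. Members and lists were chosen with earlier results of these data known.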

Additional observations from a re-analysis of the deposited data

Results flagged for a closer look

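Genes of the receptor and of the inhibitory synapse are listed here when the cortical LFC differed from the cerebellar LFC by the interaction test of limma (adjusted p under 0.05 over all tested genes). Among the members these were Gabrd, with an interaction of −1.86, and Gabrb2, with −0.49. Both were lower in the SCA1 KI cortex and were not called in the cerebellum.

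Among the other receptor genes, Gabrg3 (1.19) and Gabrq (5.07) were lower in the SCA1 KI cerebellum. Around the synapse, Igsf9b (−1.68) and Trak1 (−0.35) were lower in the cortex, and Hap1 (1.32) was higher in SCA1 KI cortex but lower in SCA1 KI cerebellum. Of 7 tested midbrain markers 4 had a positive interaction that passed, namely Pou4f1 (9.35), Shox2 (10.46), Gata3 (6.35) and Tal1 (4.17). So did 2 thalamus markers (Tcf7l2 and Slc17a6) and 1 striatum marker (Six3, 8.57), whereas 1 hippocampus marker (Wfs1) had a negative one. Markers of cell types passed as well. Vip and Sst (inhibitory neurons), Nrgn (excitatory neurons), and Slc1a6 and Gng13 (Purkinje cells) had a positive interaction. Tbr1 and Cux2 (excitatory neurons), Itpr1 (Purkinje cells) and Aldh1l1 (astrocytes) had a negative one. The part of tissue from other regions in the values of the flagged genes was not tested.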

How the results depend on the processing

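No paired analysis was possible because the deposited columns carry letters and numbers of their own and not the replicate numbers of the labels. With an absolute LFC limit of 1, 1 member was a DEG in the cortex, 1 in the cerebellum and 4, Gabra6 among them, between the WT regions. Of all 15369 tested genes 323, 312 and 3620 passed at that limit, against 2402, 824 and 9482 in the main fit. With each region on its own 1 member, Gabra4, was a DEG in the cerebellum, where 838 of all 15369 tested genes were. With a minimum mean of 100, 1 of the other receptor genes was a DEG there, and 713 of all 12664 genes tested. In the cortex 1 of the other receptor genes, Gabrq, was a DEG with DESeq2 and 0 to 1 with 1 library left out (Gabrq without WT cerebellar library 2, Gabrr2 without SCA1 KI cortical library F). With 1 library left out, the DEGs among the members ranged from 0 to 3 in the cerebellum (0 without SCA1 KI library 1 or 3). Over all tested genes the cerebellar DEGs numbered 824 with all libraries, 399 without SCA1 KI library 1 and 454 without SCA1 KI library 3. In these fits the LFC was −0.96 and −0.95 for Gabra3 and −1.76 and −1.94 for Gabra5. The DEGs among the members ranged from 2 to 3 in the cortex and from 6 to 7 between the WT regions. Over all tested genes these comparisons gave 1814 to 2593 and 9004 to 9580 DEGs. The members with an interaction ranged from 2 to 4 (4 without WT cerebellar library 2 or 4). Over all tested genes 783 to 1267 had an interaction. The direction of Gabrd in the cortex and of Gabra3 and Gabra5 in the cerebellum was kept in all 23 alternative settings, but several could not turn it. The LFC limits reused the main fit. Other filters, separate regions and leaving out a library of the other region left the LFC as it was. Among the members, 3 values near 0 turned direction. Gabra2 in the cortex was at 0.0071 with centring on the region's median, 0.021 with edgeR, 0.0064 with DESeq2 and −0.17 to 0.22 with 1 library left out. Gabrb2 in the cerebellum was at −0.025 after removal of a length and GC trend and −0.056 to 0.057 with 1 library left out, and the interaction of Gabra4 was −0.097 to 0.051. The cause was not tested. With 3 libraries a group, small differences of genes with a wide spread such as Gabra5 could not be resolved.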
